A study of Bos taurus with 39 samples.

Results

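Predicted miR-895, miR-162 and miR-364 are 3 bovine miRNA candidates of 1995 in the count tables, of which 965 are predicted and 1030 are known. They were chosen by name, because the study singled them out between the control and the carbenoxolone (CBX) group after 22 h, so the control and CBX libraries at 22 h selected them. The study also named predicted miR-895 between CBX and DO oocytes (matured alone without cumulus cells) after 22 h, so for that candidate the DO libraries at 22 h took part as well. Every comparison that holds libraries used to choose a candidate is therefore given below as a description of that candidate, without a test. The material consisted of 39 small RNA libraries of Bos taurus oocytes in 13 conditions with 3 libraries each. Control oocytes matured for 1, 6 or 22 h inside their cumulus-oocyte complexes (COCs), CBX oocytes did so in the presence of CBX, co-culture oocytes had been denuded and shared the medium with COCs across a porous insert without contact, and oocytes of the DO group had been denuded and matured alone. A further 3 control libraries carry the label 0 h, and how those oocytes were handled was not given in the sources used here. All ovaries came from a slaughterhouse, all oocytes were freed of cumulus cells before RNA isolation, and each library is a pool of oocytes. Per the study's methods, COCs were stripped with the enzyme hyaluronidase after maturation, whereas denuded oocytes were then treated with pronase to remove the zona around them. Between COC and denuded oocytes, this handling cannot be told apart from the loss of cumulus cells. No list of miRNAs that define oocytes was fixed, so the oocyte label itself was not checked against markers.

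A mature miRNA is a short RNA that guides Argonaute proteins to messenger RNAs, mostly through its seed, the bases 2 to 8 from its 5′ end. In the COC, the cumulus cells and the oocyte are coupled by gap junctions, channels of connexin proteins that let small molecules pass between cytoplasms, and CBX, a derivative of glycyrrhetinic acid, closes them. A predicted miRNA is a stretch of genome that software proposes as a miRNA from the way small RNA reads stack on a possible hairpin, and it has no entry in the miRNA database. The roles of these 3 candidates are not known, and nothing about their targets was measured here.

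The mature sequences of the 3 candidates are shown because their base composition and seeds set them apart from each other, with the seed in capitals and U for T as in the supplementary sequence list.
Predicted miR-895: gCGCCCCCggggccgcgg
Predicted miR-162: uCCAUCUGgacggcuuggcauuggg
Predicted miR-364: gGGCGCGAagcggggcug
On the ARS-UCD1.2 assembly, the predicted hairpin of miR-895 lies at chr9:93405029-93405136 on the plus strand, that of miR-162 at chr13:76526680-76526794 on the minus strand, and that of miR-364 at chr19:56554303-56554410 on the minus strand. Whether these positions fall in a gene was not analysed here. Predicted miR-895 has 18 bases, and 100% of them are G or C. Predicted miR-364 also has 18 bases, with 83.3% G or C, whereas predicted miR-162 has 25 bases and 60.0% G or C. That list holds sequences for 15 other predicted miRNAs, with 31.6% to 100% G or C (median 60.0%), and 2 of them consist only of G and C. No seed occurred more than once among the 18 sequences.

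The 2 other sequences made only of G and C belong to predicted miR-318-0 and predicted miR-559, and each shares a run of 9 bases with the 5′ end of predicted miR-895, shown here in capitals.
Predicted miR-895: GCGCCCCCGgggccgcgg
Predicted miR-318-0: gcGCGCCCCCGccgcgcg
Predicted miR-559: ggcGCGCCCCCGccgcgc
The run starts at base 1 of predicted miR-895, at base 3 of predicted miR-318-0 and at base 4 of predicted miR-559, so the seed of predicted miR-895 lies within sequence that the other 2 also hold. Predicted miR-318-0 and predicted miR-559 also overlap each other over nearly their whole length. Whether any read matched more than 1 of these sequences was not analysed here. The rule by which such reads would have been assigned was not given in the sources used here, and the count of predicted miR-895 is uncertain to that extent. For each of the 3 candidates, 0 other rows held the same counts in every library.

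The candidates differed widely in abundance. Over all libraries, predicted miR-162 collected 11891 counts and ranked 21 among the 957 predicted miRNAs with a count. Predicted miR-895 collected 793 counts and ranked 212, and predicted miR-364 collected 242 counts and ranked 416. Total miRNA counts per library ranged from 11985 to 175429 (median 70069), and 3 counts corresponded to 17.1 to 250.3 CPM (counts scaled to a common library total). These floors and the Poisson intervals below cover counting error only. Predicted miR-162 had at least 42 counts in every library, predicted miR-895 had fewer than 10 counts in 8 of 39 libraries, and predicted miR-364 had fewer than 10 in 32 libraries and none in 2. The shallowest libraries were replicate 1 of the 0 h control (11985 counts), replicate 2 of CBX at 22 h (18796) and replicate 1 of the 6 h control (20180).

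Levels are given as CPM normalized by the trimmed mean of M-values (TMM) over all 39 libraries, as mean ± SD of 3 libraries. These are shares of the miRNA counts of a library, so they also depend on the other miRNAs counted. A lower share from fewer molecules per oocyte and one from fewer contributing cells cannot be told apart.

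**Figure D1:**
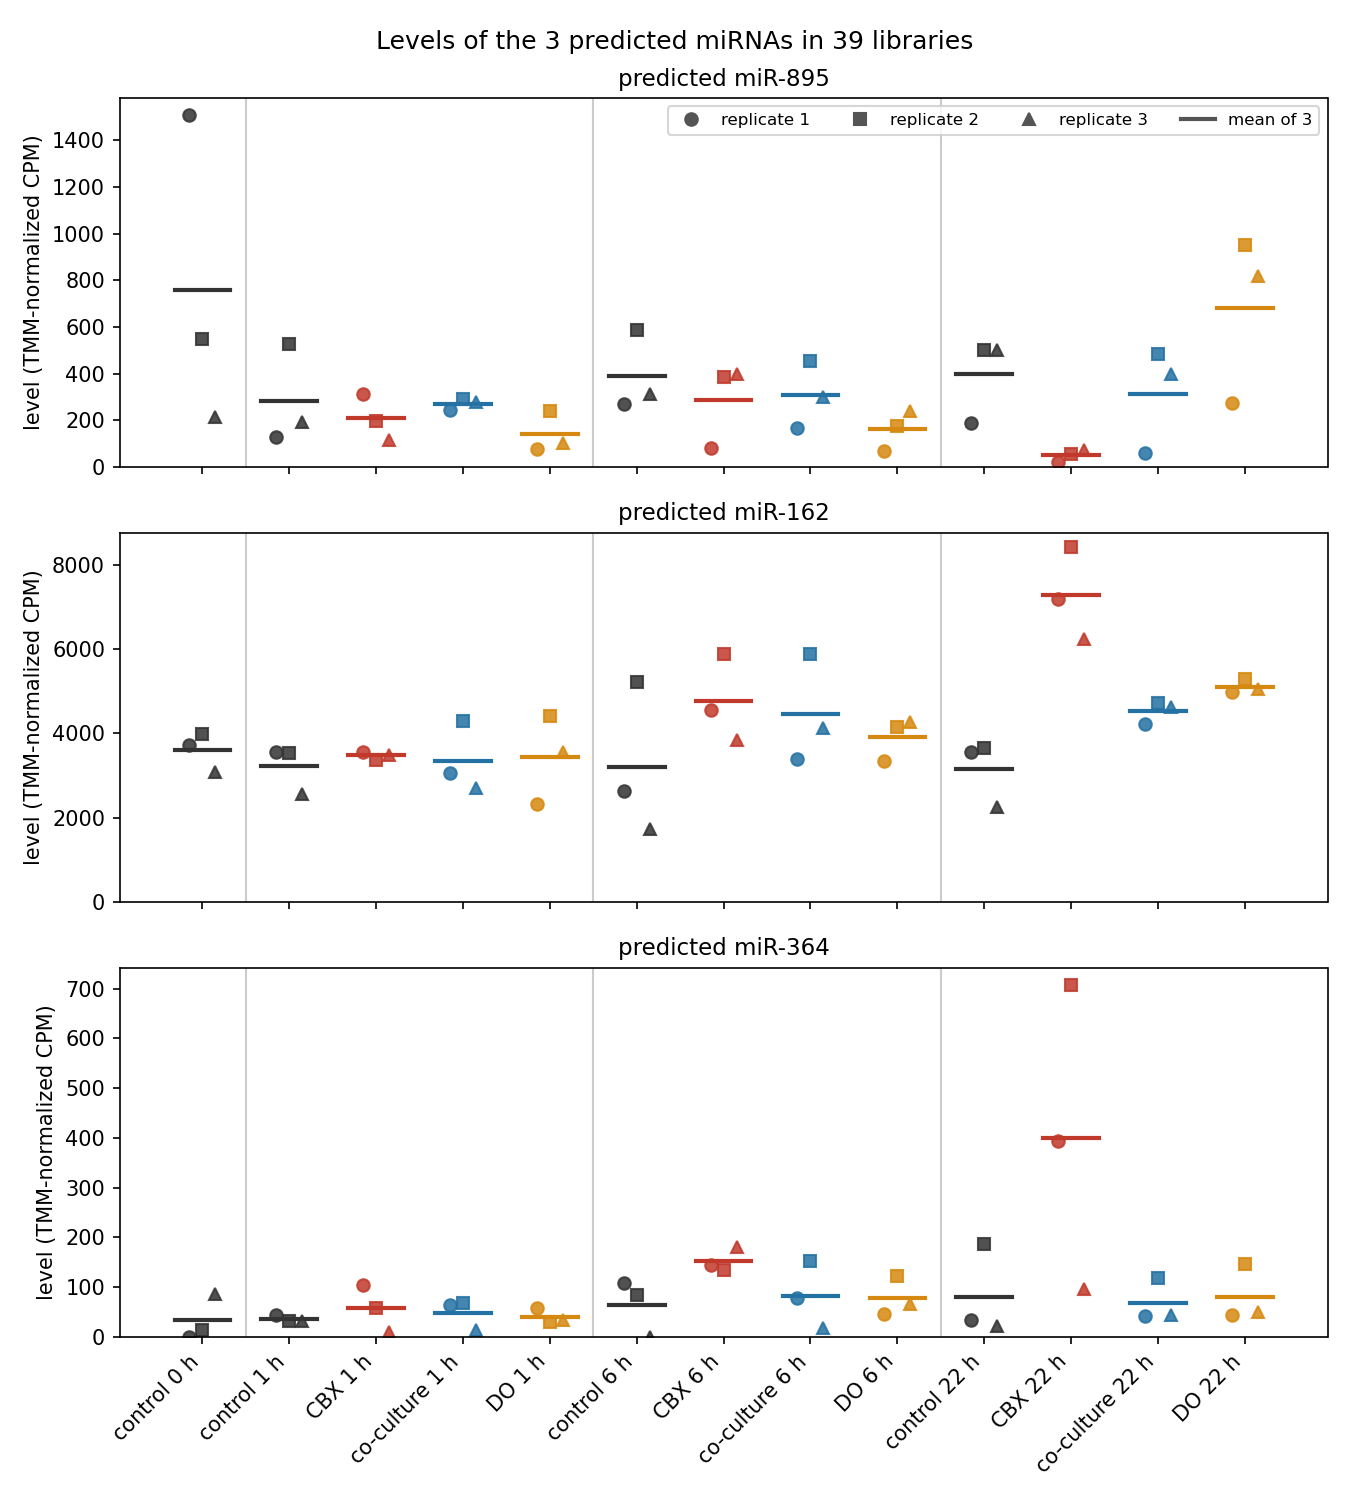
TMM-normalized CPM (vertical axes, starting at 0) of the 3 candidates in each of the 13 conditions (horizontal axis), with 1 point per library, the point shape giving the replicate and the line the mean of 3. Predicted miR-895 has its lowest mean (49.6 CPM) and predicted miR-162 its highest mean (7285 CPM) in CBX at 22 h, while the CBX libraries at 22 h of predicted miR-364 range from 95.8 to 707 CPM.

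At 22 h, where the candidates had been selected, predicted miR-895 was scarce in the CBX group. Its counts were 23, 35 and 47 in control replicates 1, 2 and 3, against 2, 1 and 6 in the CBX libraries of the same numbers. The groups did not overlap, and 2 of the 3 CBX libraries lay under 3 counts. The level was 397 ± 180 CPM (SD, n = 3) in the control and 49.6 ± 25.0 CPM in the CBX group, a log2 fold change of -2.89 (SE 0.38). Summed over replicates, the counts came to 349 CPM in the control (exact Poisson 95% interval 286 to 423) and to 45.5 CPM in the CBX group (20.8 to 86.3), the latter from 9 counts.

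In the other groups at 22 h predicted miR-895 was not scarce, apart from 1 co-culture library. It had 9, 29 and 27 counts in the co-culture libraries and 19, 52 and 49 in the DO libraries, with 315 ± 224 and 682 ± 358 CPM. The log2 fold change from CBX to DO was 3.57 (SE 0.42), and 3 of 3 same-numbered pairs were higher in DO. From control to DO it was 0.71 (SE 0.27), and from control to co-culture -0.55 (SE 0.34). Oocytes that had lost their cumulus cells thus held the sequence at a level in or above the control range, except for co-culture replicate 1 at 61.8 CPM. Co-culture was above CBX in 3 of 3 pairs, but these groups overlapped, since that library lay below CBX replicate 3 at 71.9 CPM.

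Predicted miR-162 went the other way at 22 h. The control libraries held 434, 255 and 212 counts, or 3567, 3651 and 2258 CPM, and the CBX libraries held 639, 155 and 521 counts, or 7183, 8430 and 6241 CPM. Every CBX library stood above every control library, with a log2 fold change of 1.24 (SE 0.18). Its level in the CBX group was also above every library of the co-culture group (4525 ± 269 CPM) and the DO group (5109 ± 164 CPM). The control group was below both denuded groups, with log2 fold changes of 0.52 (SE 0.21) from control to co-culture and 0.70 (SE 0.20) from control to DO. The CBX value was thus the highest and the control value the lowest of the 4 groups at 22 h.

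Predicted miR-364 was counted 4, 13 and 2 times in the control libraries at 22 h and 35, 13 and 8 times in the CBX libraries. These groups overlapped, since control replicate 2 at 186 CPM lay above CBX replicate 3 at 95.8 CPM, although each CBX library exceeded the control of its own number. The mean level was 80.1 ± 92.0 CPM in the control and 399 ± 306 CPM in the CBX group, and the log2 fold change was 2.56 (SE 0.46). Without the shallow CBX replicate 2 it was 3.14 (SE 0.64), and without replicate 1 it was 1.96 (SE 0.56). Co-culture libraries held 6, 7 and 3 counts and DO libraries 3, 8 and 3. The low-count filter (at least 10 counts, scaled to library size, in as many libraries as the smallest group) let predicted miR-364 through in 2 of 25 comparisons, control against CBX at 22 h and CBX at 6 h against 22 h. Both hold the CBX libraries at 22 h in which it was high, and it passed in no comparison without them. These libraries were not enough by themselves, since it did not pass in CBX against co-culture or CBX against DO at 22 h. Predicted miR-162 passed in 25 comparisons and predicted miR-895 in 23, and these include all 18 tested for predicted miR-162 and all 16 tested for predicted miR-895.

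Among miRNAs followed beside the candidates, bta-miR-21-5p, which is abundant in cumulus and granulosa cells, had a log2 fold change of -1.08 (SE 0.22) from control to CBX at 22 h, and predicted miR-906, from the mitochondrial genome, had -2.04 (SE 0.35). They were also lower in DO than in control oocytes, with log2 fold changes of -0.68 (SE 0.15) and -1.43 (SE 0.27), where predicted miR-895 had 0.71. The sequences that share 9 bases with predicted miR-895 had other fold changes from control to CBX at 22 h. Predicted miR-318-0 had a log2 fold change of 0.79 (SE 0.49) and predicted miR-559 of -0.10 (SE 0.79), beside -2.89 for predicted miR-895. Their groups overlapped. For predicted miR-559 the 95% interval was wide (-2.02 to 1.81). It was higher in CBX in 2 of 3 pairs, but in replicate 2 it stood at 6501 CPM (454 counts) in control and 707 CPM (13 counts) in CBX. From CBX to DO, predicted miR-559 had a log2 fold change of 2.42 (SE 0.41), beside 3.57 for predicted miR-895. These are descriptions, since they use the same libraries.

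The summed level of miRNAs linked to other cells is given beside these values, as CPM without TMM normalization. For 14 miRNAs linked to cumulus and granulosa cells, 12 of them detected, it was 11158 to 12268 CPM in control libraries at 22 h. In CBX libraries it was 6331 to 6934 CPM, and in co-culture and DO libraries 6707 to 8588 and 6746 to 8916 CPM. This sum includes bta-miR-21-5p, which the study named between control and CBX at 22 h. That miRNA alone stood at 7625 to 10310 TMM-normalized CPM in control and 3318 to 4768 in CBX libraries. The gap between control and CBX in the sum is therefore not independent of that choice. The summed level of 4 muscle miRNAs, of which 3 were detected, was 372 to 1431 CPM in CBX and 42.4 to 2354 CPM in control libraries at 22 h. The 7 blood miRNAs, of which 6 were detected, summed to 469 to 480 and 487 to 561 CPM in these groups. The part of other cells in the values of the candidates was not tested.

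The libraries at 1 and 6 h played no part in the selection. The question whether gap junction block was already accompanied by a shift of the candidates at those times was addressed by fitting each comparison across all miRNAs with the quasi-likelihood test of edgeR, with the replicate number as a block. A miRNA was called where its Benjamini-Hochberg adjusted p was under 0.05 and it changed by 1 or more on the log2 scale. At 1 h, control libraries held 12, 33 and 12 counts of predicted miR-895 and CBX libraries 36, 10 and 12. At 6 h the counts were 5, 28 and 20 against 12, 20 and 22. The groups overlapped at both times. The log2 fold change from control to CBX was -0.28 (SE 0.45, adjusted p = 0.997) at 1 h, with 1 of 3 pairs higher in CBX, and it turned to 0.37 without replicate 2. At 6 h it was -0.62 (SE 0.53, adjusted p = 0.938), again with 1 of 3 pairs higher. Of all miRNAs tested in these comparisons, 0% of 448 and 0% of 395 were called, while 11 and 7 had an unadjusted p under 0.05.

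Predicted miR-162 was nearly level between control and CBX at 1 h, with 3224 ± 566 and 3478 ± 95.4 CPM and a log2 fold change of 0.08 (SE 0.25, adjusted p = 0.997) that turned to -0.11 without replicate 3. At 6 h the control libraries stood at 2641, 5221 and 1734 CPM and the CBX libraries at 4557, 5881 and 3843 CPM. CBX was higher in 3 of 3 pairs, but control replicate 2 lay above 2 of the CBX libraries. The log2 fold change was 0.59 (SE 0.37, 95% interval -0.24 to 1.42, adjusted p = 0.938). Taking 1 and 6 h together, it was 0.33 (SE 0.21, 95% interval -0.12 to 0.78, adjusted p = 0.993), with 5 of 6 pairs higher in CBX. For predicted miR-895 the value over both times was -0.40 (SE 0.41, 95% interval -1.28 to 0.49, adjusted p = 0.993), with 2 of 6 pairs higher. In this fit 0% of 469 miRNAs were called by edgeR and 0 by DESeq2, and 11 had an unadjusted p under 0.05.

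Predicted miR-364 did not pass the filter in any of these comparisons and was compared by exact two-sided permutation tests, which with 3 against 3 libraries cannot give a p below 0.1. At 6 h its counts were 2, 4 and 0 in the control, 21, 7 and 10 in CBX, 13, 8 and 1 in co-culture and 8, 7 and 5 in the DO group. The 3 CBX libraries lay at 135 to 180 CPM. They were above every control library (0 to 108 CPM) and every DO library (46.6 to 123 CPM). The exact permutation p was 0.1 for each, the smallest possible. The share of all miRNAs without overlap in these comparisons is not given here. The CBX libraries overlapped the co-culture libraries (16.8 to 152 CPM, exact permutation p = 0.3). The 108 CPM of control replicate 1 came from 2 counts. In that shallow library 3 counts corresponded to 161.7 CPM, above CBX replicates 1 and 2 (144 and 135 CPM). Left unfiltered, the edgeR fit gave a log2 fold change of 1.63 (SE 0.83, adjusted p = 0.990) from control to CBX at 6 h. Control libraries held 4, 2 and 2 counts at 1 h and CBX libraries 12, 3 and 1, and the groups overlapped (exact permutation p = 0.6). Over both times 5 of 6 pairs were higher in CBX, and the unfiltered log2 fold change was 1.09 (SE 0.54, adjusted p = 0.995). At this depth, no difference of predicted miR-364 at 1 or 6 h passed a test.

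**Figure D2:**
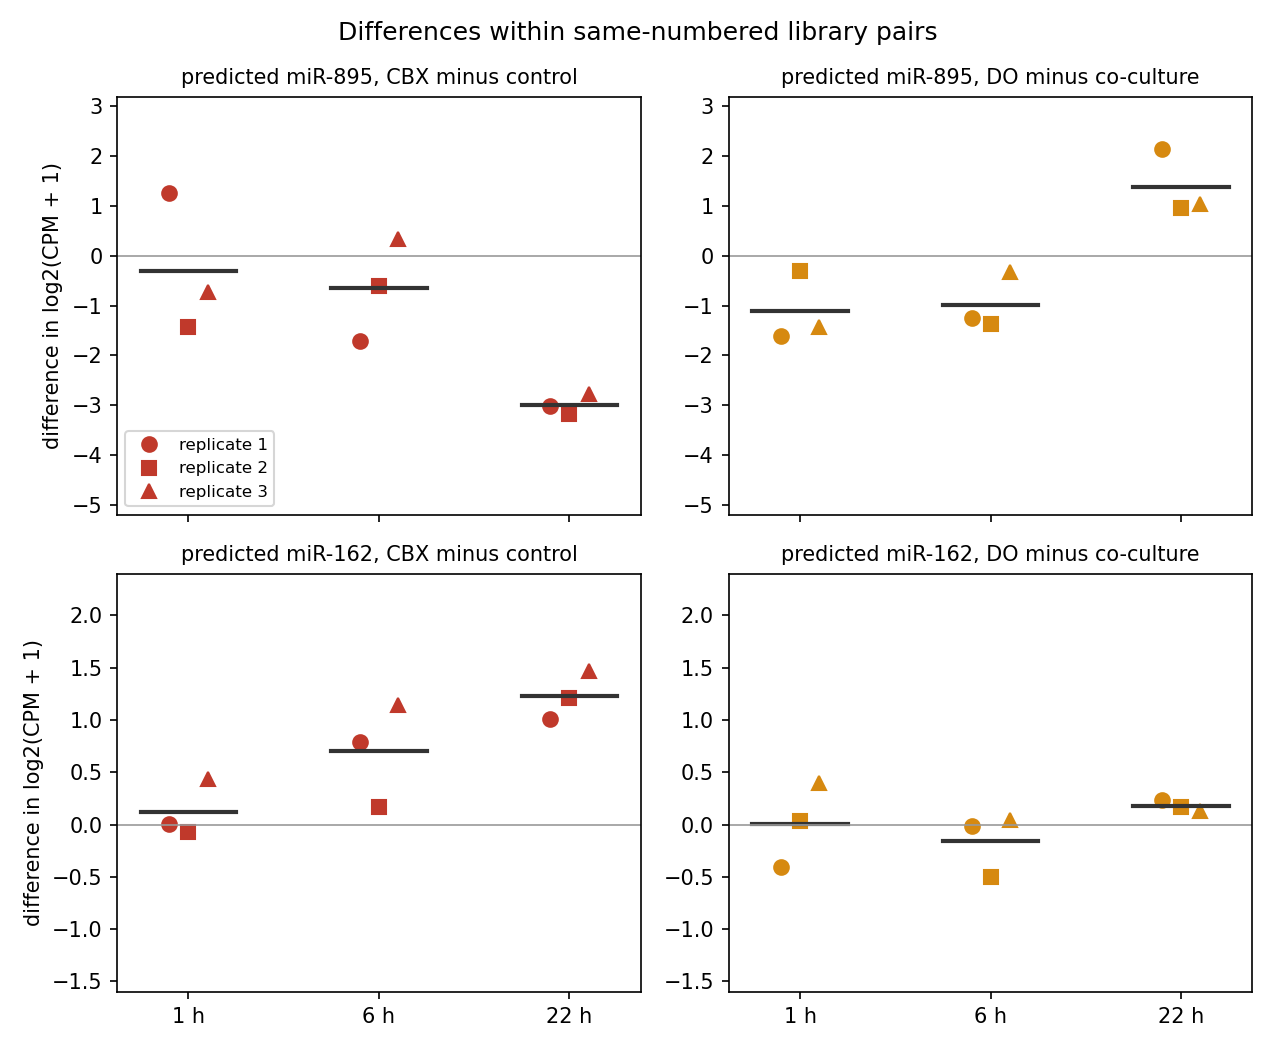
Difference in log2(CPM + 1) between same-numbered libraries (vertical axes) at 1, 6 and 22 h (horizontal axes), for CBX minus control (left) and DO minus co-culture (right), predicted miR-895 above and predicted miR-162 below, with 1 point per pair and the mean as a line. The 3 CBX minus control values of predicted miR-895 at 22 h lie between -3.18 and -2.78, and its DO minus co-culture values are below 0 at 1 and 6 h and above 0 at 22 h.

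The DO group was compared with the other groups at 1 and 6 h, and no difference of predicted miR-895 passed the test. In the DO group it had 7, 8 and 9 counts at 1 h (140 ± 85.6 CPM) and 12, 10 and 18 at 6 h (161.8 ± 85.8 CPM). The co-culture libraries held 19, 30 and 22 counts at 1 h (272 ± 25.0 CPM) and 28, 24 and 18 at 6 h (308 ± 145 CPM). At 1 h every DO library was below every co-culture library, and at 6 h the groups overlapped, with DO lower in 3 of 3 pairs at each time. The log2 fold change from co-culture to DO was -1.11 (SE 0.42, adjusted p = 0.739) at 1 h and -0.98 (SE 0.33, adjusted p = 0.219) at 6 h. From control to DO it was -0.90 (SE 0.34, adjusted p = 0.969) at 1 h and -1.29 (SE 0.48, adjusted p = 0.821) at 6 h, where the groups did not overlap. From CBX to DO it was -0.69 (SE 0.49, adjusted p = 0.991) at 1 h, where it turned to 0.08 without replicate 1, and -0.65 (SE 0.41, adjusted p = 0.703) at 6 h. These 6 comparisons share their DO libraries within each time. Where their groups did not overlap, the exact permutation p was 0.1, the smallest that 3 against 3 libraries can give. The share of all miRNAs without overlap is not given here.

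At 22 h the values of predicted miR-895 in these groups are a description. Of the DO libraries, replicates 2 and 3 held the most predicted miR-895 of the 6 co-culture and DO libraries, and each DO library exceeded the co-culture library of its number. The log2 fold change from co-culture to DO was 1.21 (SE 0.29), with 3 of 3 pairs higher, and 1.43 without replicate 2. Within the denuded groups together, the log2 fold change from 6 to 22 h was 0.87 (SE 0.41), with 5 of 6 pairs higher.

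For predicted miR-162 no difference between the denuded groups passed the test. Its log2 fold change from co-culture to DO was 0.01 (SE 0.27) at 1 h, -0.17 (SE 0.18) at 6 h and 0.12 (SE 0.14) at 22 h, with adjusted p = 0.997, 0.974 and 0.833. At 22 h the DO libraries (4981 to 5294 CPM) all lay above the co-culture libraries (4218 to 4724 CPM). The exact permutation p was 0.1, the smallest that 3 against 3 libraries can give. The share of all miRNAs without overlap in this comparison is not given here, so nothing is concluded from the separation.

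Over the 6 group comparisons at 1 h, edgeR called 0 of the 12 values of predicted miR-895 and miR-162, and 2 had an unadjusted p under 0.05, both of predicted miR-895 against DO. The share of all miRNAs called was 0% in 5 of these comparisons and 1.46% between CBX and DO, with 10 to 30 miRNAs at an unadjusted p under 0.05 and 0 to 3 called by DESeq2. At 6 h, 0 of 12 values were called and 2 had an unadjusted p under 0.05, again of predicted miR-895 against DO, while 2.35% of all miRNAs were called between CBX and DO, 0.473% between co-culture and DO and 0% in the other 4, with 7 to 37 miRNAs at an unadjusted p under 0.05 and 0 to 2 called by DESeq2. Between co-culture and DO at 22 h, the value of predicted miR-162 was not called, and 0% of 420 miRNAs were called by edgeR and 3 by DESeq2, with 30 at an unadjusted p under 0.05. DESeq2 called 0 of the candidates' values in the comparisons tested for them.

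Time was tested within libraries that had no part in the choice of the candidate concerned. From 0 to 1 h in control oocytes, predicted miR-895 went from 17, 40 and 10 counts to 12, 33 and 12, with a log2 fold change of -1.17 (SE 0.67, adjusted p = 0.994), and 0 of 3 pairs were higher at 1 h. The highest level of all, 1506 CPM in replicate 1 at 0 h, rests on 17 counts in the shallowest library, and without that library the log2 fold change was -0.03. Predicted miR-162 had a log2 fold change of -0.19 (SE 0.27, adjusted p = 0.994), which turned to 0.27 with deduplicated reads as library size. In this comparison 0% of 409 miRNAs were called by edgeR and 0 by DESeq2, and 16 had an unadjusted p under 0.05.

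From 1 to 6 h over the 4 groups, predicted miR-162 had a log2 fold change of 0.22 (SE 0.13, adjusted p = 0.445), with 9 of 12 pairs higher at 6 h, and predicted miR-895 of 0.21 (SE 0.24, adjusted p = 0.709), with 8 of 12 pairs higher and a value of -0.13 without replicate 3. Predicted miR-364 was higher in 10 of 12 pairs, with an unfiltered log2 fold change of 0.84 (SE 0.33, adjusted p = 0.471). Of all miRNAs, 0.366% were called. From 6 to 22 h in the denuded groups predicted miR-162 had a log2 fold change of 0.20 (SE 0.12, adjusted p = 0.460), with 5 of 6 pairs higher, and 0% of 469 miRNAs were called by edgeR and 0 by DESeq2, with 59 at an unadjusted p under 0.05. Between oocytes kept in their COCs (control and CBX) and denuded oocytes (co-culture and DO) at 1 and 6 h, predicted miR-895 had a log2 fold change of -0.33 (SE 0.27, adjusted p = 0.848) and predicted miR-162 of 0.08 (SE 0.13, adjusted p = 0.919), the latter turning to -0.08 without replicate 3. In that fit 0.366% of miRNAs were called.

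As descriptions, the CBX group itself moved between 6 and 22 h. Predicted miR-895 went from 82.2, 386 and 397 CPM to 22.5, 54.4 and 71.9 CPM, without overlap. Predicted miR-162 went up in 3 of 3 pairs, with a log2 fold change of 0.69 (SE 0.27), and predicted miR-364 in 2 of 3, with 1.12 (SE 0.55). In control oocytes over the same interval predicted miR-895 had a log2 fold change of 0.01 (SE 0.36) and predicted miR-162 of 0.03 (SE 0.26).

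**Figure D3:**
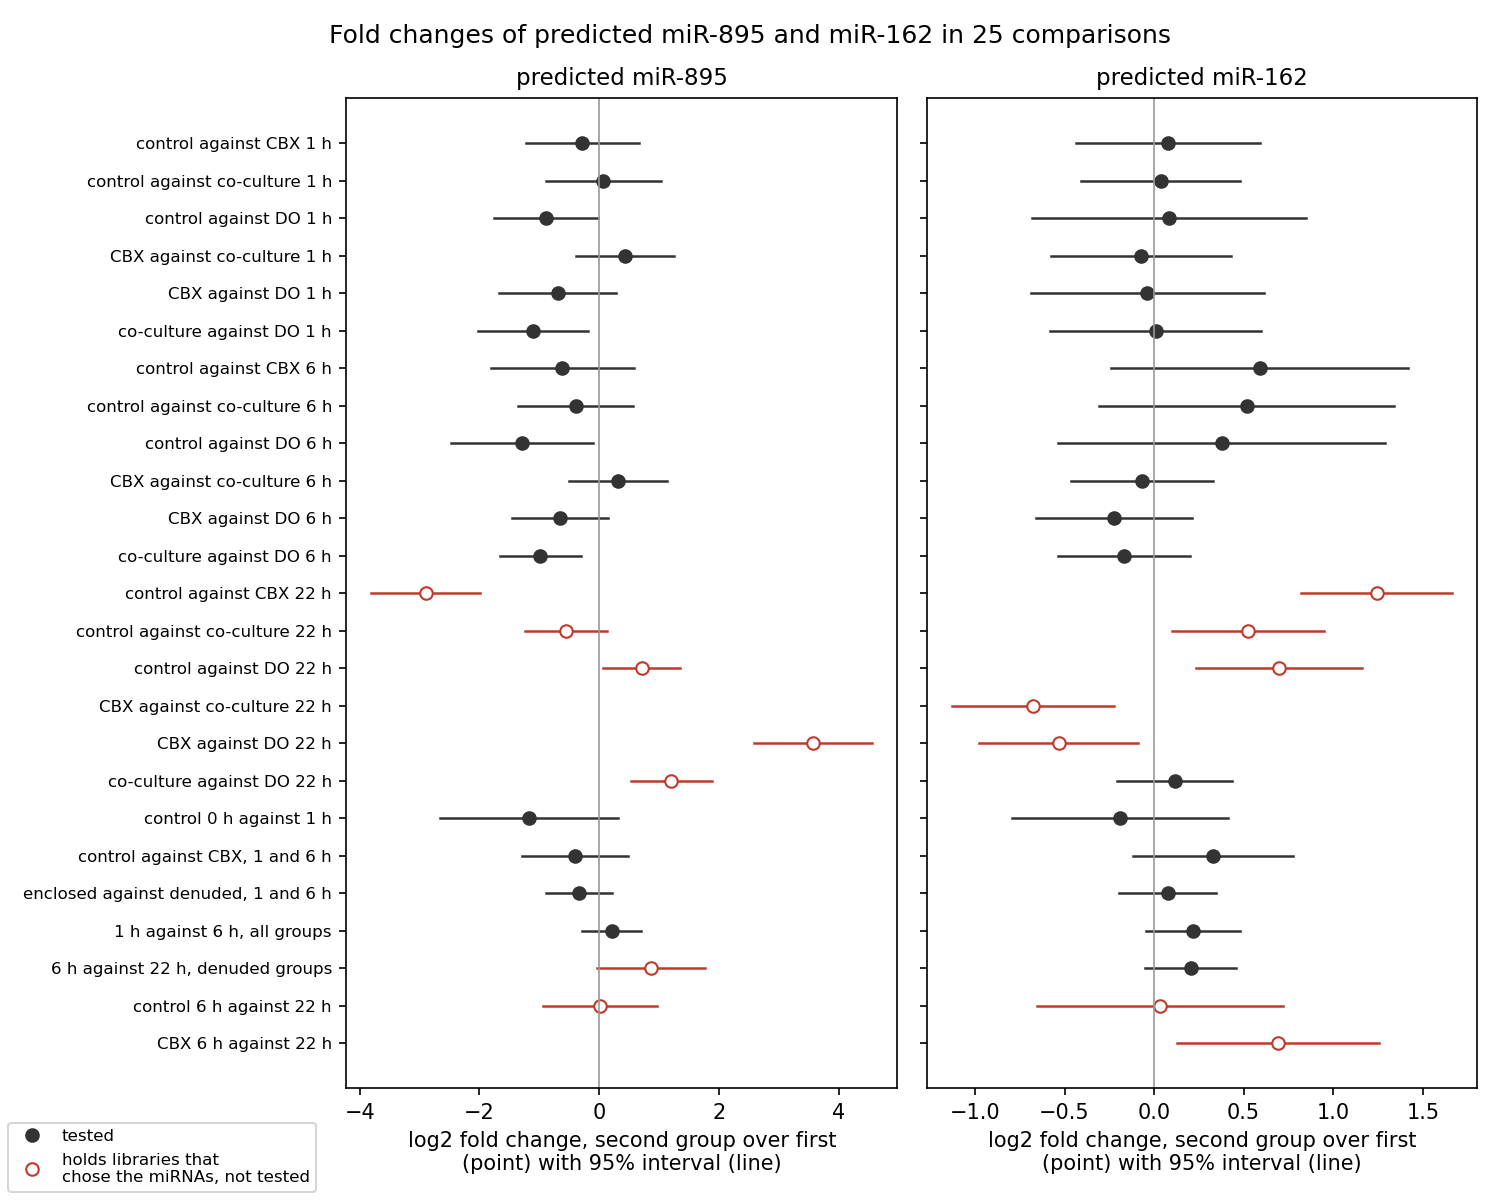
Log2 fold change of the second group over the first (horizontal axes, point) with its 95% interval (line) for predicted miR-895 and predicted miR-162 in 25 comparisons (vertical axis). Filled points are tested comparisons (16 for predicted miR-895 and 18 for predicted miR-162), and open red points those that hold libraries used to choose the candidate, where predicted miR-895 reaches 3.57 and predicted miR-162 reaches 1.24. No point is drawn for predicted miR-895 where it did not pass the filter.

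Ordered over all conditions, the mean level of predicted miR-895 ran from 756 ± 670 CPM in the control at 0 h, through DO at 22 h and the control at 22 h (397 ± 180) and 6 h (390 ± 172), down to DO at 6 h (161.8 ± 85.8) and 1 h (140 ± 85.6) and CBX at 22 h (49.6 ± 25.0). Neighbours in this order overlapped, except the last pair. The highest condition mean was 15.3 times the lowest, and replicates of a condition had a median coefficient of variation of 52.5%. Predicted miR-162 ran from 7285 ± 1098 CPM in CBX at 22 h, through DO at 22 h (5109 ± 164) and CBX at 6 h (4760 ± 1034), to the control at 1 h (3224 ± 566), 6 h (3199 ± 1809) and 22 h (3158 ± 781). Only the first pair of neighbours did not overlap, and the highest mean was 2.31 times the lowest, with a median coefficient of variation of 17.6%. Predicted miR-364 was highest in CBX at 22 h (399 ± 306 CPM) and CBX at 6 h (153 ± 24.1), and the other 11 conditions lay between 33.4 and 82.2 CPM. All its neighbours overlapped, and its median coefficient of variation was 72.1%.

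Across the 13 condition means, predicted miR-162 and miR-364 had a Spearman correlation of 0.55, predicted miR-895 and miR-162 of -0.13, and predicted miR-895 and miR-364 of -0.09. The miRNAs most like each candidate over the 39 libraries, among 499 compared, were predicted miR-484 (Spearman correlation 0.53), bta-miR-2284x (0.51) and predicted miR-137 (0.50) in the case of predicted miR-895. In the case of predicted miR-162 they were bta-miR-3432a (0.82), predicted miR-899 (0.79) and predicted miR-455 (0.78), and for predicted miR-364 bta-miR-11976 (0.63), predicted miR-174 (0.55) and predicted miR-804 (0.54). These values are descriptions over libraries that share their depth and composition.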

How the data were processed

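The authors deposited raw counts for each mature miRNA, without normalization. Per the study's methods, reads were collapsed by their molecular identifiers (UMI-tools, version 1.1.2 per the submitters' processing notes), placed on the bovine assembly ARS-UCD1.2 and tallied on miRBase entries and on miRPro predictions. Known and predicted counts were joined here, and total counts per library ranged from 11985 to 175429.

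Comparisons were fitted with edgeR 4.0.16 (limma 3.58.1, R 4.3.3), using filterByExpr (minimum count 10, minimum total 15), TMM, the quasi-likelihood F-test and Benjamini-Hochberg adjustment over all miRNAs tested. The SE is the log2 fold change divided by the square root of F. The replicate number entered as a block, taken as the ovary pool that the study's methods use as batch. The labels do not say so, and the deviations of same-numbered libraries had correlations from -0.06 to 0.58, all above 0.1 in 11 of 21 comparisons. If the libraries are not independent pools, p-values measure only the spread between them. Likeness used log2(CPM + 1). The procedure was tested on simulated data that gave every miRNA the same spread beyond counting error and changed only miRNAs with a mean of at least 10 counts. It does not cover counts as low as those of predicted miR-364 (median 4).

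The candidates, marker lists and tests were chosen with earlier results of these data known. Planned tests of predicted miR-895 against DO libraries at 22 h were dropped after their values were seen, because those libraries took part in its choice. Also named, by rule, were the 3 miRNAs most like each candidate, predicted miRNAs sharing at least 8 bases with one, bta-miR-21-5p and predicted miR-906. Sequences and positions come from the study's supplementary list. Alternatives were no replicate block, RLE size factors, DESeq2 1.42.0, no filter, the robust option, deduplicated reads as library size, one fit over 39 libraries, identical copies entered once, and leaving out each replicate or shallow library. The study's own fold changes and p-values were not used.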

Additional observations from a re-analysis of the deposited data

Results flagged for a closer look

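For predicted miR-895, every same-numbered pair moved one way at an earlier time and the opposite way at 22 h in 5 cases, all of them involving the DO group. The DO libraries at 22 h took part in the choice of this candidate, as did the control and CBX libraries at 22 h, so these differences were not tested and are descriptions. Differences are in log2(CPM + 1). DO minus co-culture changed by 2.49 between 1 and 22 h (from -1.11 to 1.38) and by 2.37 between 6 and 22 h (from -0.98 to 1.38). DO minus control changed by 1.64 between 1 and 22 h (from -0.91 to 0.72) and by 2.07 between 6 and 22 h (from -1.35 to 0.72). DO minus CBX changed by 4.41 between 6 and 22 h (from -0.69 to 3.72). These 5 cases share DO libraries and are not independent of each other.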

How the results depend on the processing

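In the tested comparisons no alternative that was run made a call of a candidate. The dropped tests of predicted miR-895 are not among them. Without replicate 2, the edgeR fit would have called it between co-culture and DO at 22 h (log2 fold change 1.43). That is no test, since the DO libraries at 22 h took part in its choice. With deduplicated reads as library size the median of all miRNAs from control to CBX at 22 h shifted to -0.66, and predicted miR-895 and miR-162 moved to -3.43 and 0.58. Relative to that median they were -2.77 and 1.24. The same setting turned predicted miR-895 from control to CBX at 1 h to 0.015 and predicted miR-162 from 0 to 1 h to 0.27. Leaving out each replicate gave -0.085 to 0.21 for predicted miR-162 between COC and denuded oocytes at 1 and 6 h, -0.13 to 0.60 for predicted miR-895 from 1 to 6 h, -1.09 to 0.37 for predicted miR-895 and -0.11 to 0.20 for predicted miR-162 from control to CBX at 1 h, and -1.12 to 0.077 for predicted miR-895 from CBX to DO at 1 h. The cause of these sign changes was not tested. Among 201 further single values the sign changed in 21, all between -0.43 and 0.24. Without the replicate block, the log2 fold change from control to CBX at 22 h was -3.00 (SE 0.63) for predicted miR-895, 1.22 (SE 0.24) for predicted miR-162 and 2.25 (SE 0.92) for predicted miR-364, and no call of a candidate changed. Depth limits predicted miR-364 throughout and predicted miR-895 in the CBX group at 22 h.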
